A study of Mus musculus with 14 samples.

Results

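The genes examined were 10 basic helix-loop-helix (bHLH) transcription factor genes of heart, somite and muscle: Hand1 and Hand2, Mesp1, Mesp2 and Tcf15, Myod1, Myf5 and Myf6, and Tcf21 and Msc. The rule that chose them names gene family and lineage and uses no measured value. It was nevertheless set with earlier results of these data known, so the choice was not blind to them. They are 10 of the 21631 protein-coding mouse genes placed on chromosomes 1 to 19 and X. For each gene, the peaks of 12 deposited ChIP-seq lists were measured over the gene and 10 kb to either side, a window of 21.4 to 26.0 kb. Cover is the length of this window that lies under peaks, in kb, and full width is the whole length of every peak that touches the window. Full width leaves out peaks wholly beyond the window, so a stretch split into several peaks can count as narrower than an unbroken one.

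The cells were mouse cells labelled PDGF Neural Stem Cells, grown in neural stem cell medium with epidermal and basic fibroblast growth factors. The series' design text calls them DIPG cells, an abbreviation of diffuse intrinsic pontine glioma, which arises in the brainstem of children. They had the genotype H3WT, with wild-type histone H3.3, or K27M, with a histone H3.3 in which methionine replaces lysine 27. Cells of each genotype received DMSO, the solvent control, or 3 µM of EPZ6438 (EPZ), an inhibitor of the methyltransferase Ezh2, for 12 days. H3K27me3 was mapped in 2 libraries of each genotype under each treatment, while Suz12 and Ring1b were mapped in 1 library per genotype, in DMSO only. Nothing in the labels says how the K27M histone or the PDGF background was introduced, whether each genotype is a single clone, or whether replicates were separate cultures.

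Factors of the bHLH family pair with broadly expressed E proteins such as Tcf3, Tcf4 and Tcf12 and bind the E-box, a short DNA element with the letters CANNTG. Myod1 and its relatives can switch other cells towards skeletal muscle, Hand and Mesp factors act in the early heart, and Mesp2 and Tcf15 in the somites. Polycomb repressive complex 2 (PRC2), of which Suz12 is a subunit and Ezh2 the enzyme, places H3K27me3 over such lineage genes in cells of other lineages, and Ring1b is the ubiquitin ligase of Polycomb repressive complex 1 (PRC1).

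The peak sets differed greatly in size. H3K27me3 lists held 2351 to 59899 peaks in DMSO and 201 to 340 in EPZ, Suz12 lists 631 and 1252, and Ring1b lists 1754 and 1808. Covered length over the whole list was 3.24-fold lower in K27M than in H3WT DMSO for replicate 1 and 3.31-fold lower for replicate 2. Replicate 2 of both DMSO groups covered more than replicate 1, at 217 against 43.6 Mb in H3WT and 65.5 against 13.5 Mb in K27M. The reads behind each list are unknown, so a peak list cannot separate less mark from a shallower library, nor fewer cells with the mark from less mark per cell. The part of depth in each difference was not tested. Of 10 neural stem and glial progenitor markers, 1 (Pdgfra) had an H3K27me3 peak in both H3WT DMSO libraries, and Sox2, Vim, Fabp7, Sox9, Olig2 and Egfr had none in any of the 8 libraries.

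The promoter sequences below are those of 4 bHLH genes with a promoter entry. The genes range from Hand2, with peaks over the promoter in every library, to Mesp2, with a peak in a single one. Myf5, which had no peak in any list, is not printed. The sequences are the 250 bases before the start site, 5′ to 3′ on the gene's own strand, from RefSeq on the assembly GRCm38.p6, with CpG dinucleotides in capitals. These stretches lie at chr8:57320733-57320982 on the plus strand for Hand2, chr10:22820144-22820393 on the minus strand for Tcf21, chr7:79810477-79810726 on the plus strand for Mesp2 and chr7:79793591-79793840 on the minus strand for Mesp1.
Hand2: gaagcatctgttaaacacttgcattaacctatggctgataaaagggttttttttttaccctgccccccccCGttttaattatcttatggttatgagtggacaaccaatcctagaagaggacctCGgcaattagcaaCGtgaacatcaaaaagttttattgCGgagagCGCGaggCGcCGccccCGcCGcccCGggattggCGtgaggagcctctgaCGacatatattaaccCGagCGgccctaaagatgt
Tcf21: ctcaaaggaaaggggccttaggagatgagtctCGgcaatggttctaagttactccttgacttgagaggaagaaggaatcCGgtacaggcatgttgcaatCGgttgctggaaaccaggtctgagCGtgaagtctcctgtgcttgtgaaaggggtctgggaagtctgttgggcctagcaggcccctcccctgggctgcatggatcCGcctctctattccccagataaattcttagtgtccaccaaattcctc
Mesp2: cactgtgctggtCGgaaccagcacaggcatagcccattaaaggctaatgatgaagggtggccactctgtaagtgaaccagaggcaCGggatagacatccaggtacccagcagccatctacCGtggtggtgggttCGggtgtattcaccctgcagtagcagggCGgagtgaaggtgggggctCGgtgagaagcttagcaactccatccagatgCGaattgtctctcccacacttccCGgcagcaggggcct
Mesp1: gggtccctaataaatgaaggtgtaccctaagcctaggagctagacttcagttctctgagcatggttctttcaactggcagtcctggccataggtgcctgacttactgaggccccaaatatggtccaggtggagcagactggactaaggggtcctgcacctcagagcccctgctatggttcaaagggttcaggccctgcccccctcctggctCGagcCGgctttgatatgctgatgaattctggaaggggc

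The Hand2 stretch held 15 CpGs, Mesp2 8, Tcf21 5 and Mesp1 2. Over the 300 bases that also include the first 50 of the transcript, the ratio of observed to expected CpG was 0.90 for Hand2, higher than in 87.0% of all promoters of this length, and 0.40 for Mesp2, 0.38 for Tcf21 and 0.17 for Mesp1. An H3K27me3 peak lay over this promoter in 8 of 8 libraries for Hand2, 6 for Tcf21, 3 for Mesp1 and 1 for Mesp2, so that Hand2 came first in both CpG content and marking and the other 3 genes stood in a different order in each. The E-box letters CANNTG, which read the same on both strands, occurred 2 times each in the Hand2, Mesp1 and Mesp2 windows and not in that of Tcf21. They occurred in 72.3% of all promoters of this length.

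In H3WT DMSO cells, 7 of the 10 genes had an H3K27me3 peak in both libraries (Hand1, Hand2, Mesp1, Myod1, Tcf15, Tcf21 and Msc), against 21.4% of all protein-coding genes. In K27M DMSO cells, 4 did (Hand1, Hand2, Myod1 and Tcf21), against 7.06%. After EPZ, 2 did in H3WT cells (Hand2 and Tcf21), against 0.985%, and 1 in K27M cells (Hand2), against 0.74%. Hand2 was 1 of the 152 genes with a peak in all 8 libraries, 0.703% of all genes. Myf5 and Myf6 had no peak in any of the 12 lists; 54.9% of all genes lacked an H3K27me3 peak in all 8 libraries.

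**Figure D1:**
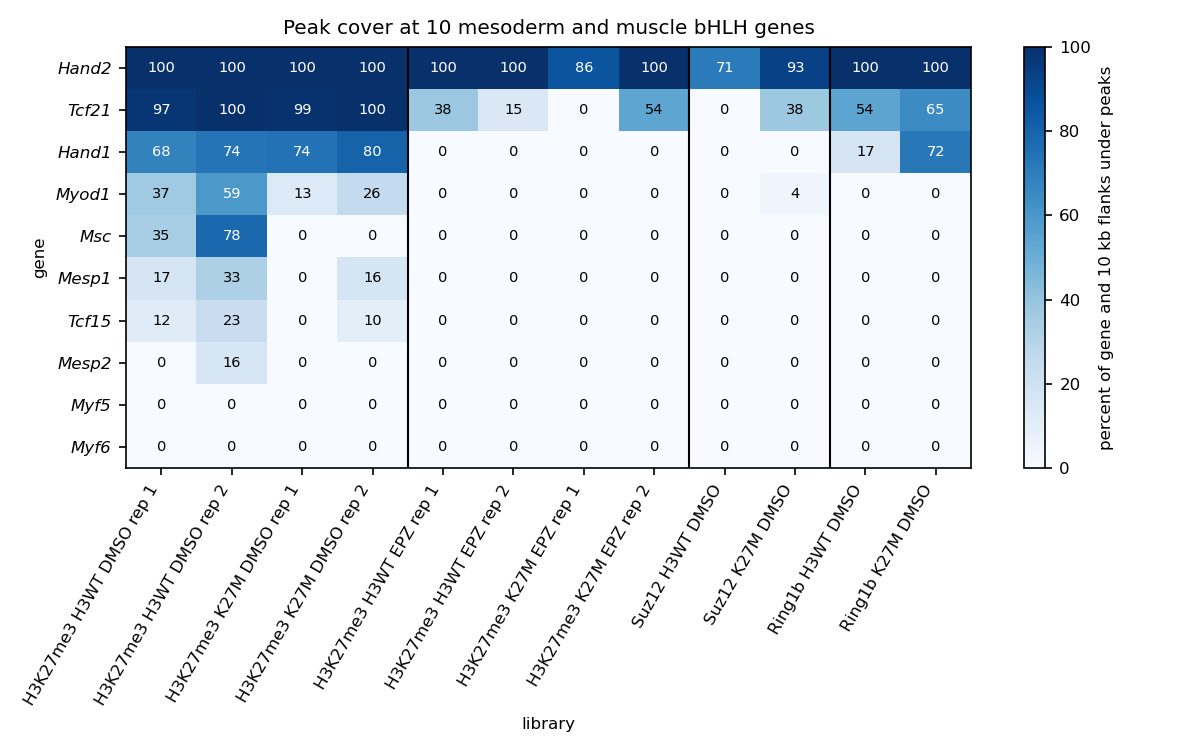
Each cell gives the percent of a gene and its 10 kb flanks that lies under peaks, for 10 bHLH genes (rows) in 12 libraries (columns), with vertical lines between H3K27me3 in DMSO, H3K27me3 in EPZ, Suz12 and Ring1b. Hand2 was fully covered in 7 of 8 H3K27me3 libraries, and the lower rows emptied from H3WT DMSO to K27M DMSO to EPZ.

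Hand1 and Hand2 act in the heart, Hand1 mainly in the early left ventricle and extraembryonic tissue and Hand2 in the right ventricle, branchial arches, limb and sympathetic neurons. Hand2, on chromosome 8 from 57320983 to 57324517, was under a single H3K27me3 peak in each of the 8 libraries. Its full width was 58.0 and 75.5 kb in the H3WT DMSO libraries, replicates 1 and 2 in that order here and below, and 57.0 and 65.8 kb in the K27M DMSO libraries. The H3WT EPZ libraries had 41.3 and 29.7 kb, and those of K27M EPZ 24.1 and 31.9 kb. All 4 EPZ widths lay below all 4 DMSO widths, while the widths of H3WT and K27M overlapped in DMSO. The mean width for H3WT was 66.8 ± 12.4 kb with DMSO and 35.5 ± 8.20 kb with EPZ, and that for K27M was 61.4 ± 6.25 kb with DMSO and 28.0 ± 5.51 kb with EPZ (SD, n = 2 each).

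Relative to the Hand2 start site, with negative values upstream, the peak ran from -16.7 to 41.3 kb and from -31.8 to 43.7 kb in H3WT DMSO. In K27M EPZ it ran from -6.69 to 17.4 kb and from -10.4 to 21.4 kb. The narrower EPZ peaks lay wholly inside the DMSO peaks of their genotype and replicate number, and both of their edges lay nearer to the gene. In all 12 libraries, the peaks also reached the noncoding RNA genes Hand2os1, whose interval lies just upstream of Hand2, and Gm34030 and Hdnr downstream. No other protein-coding gene lay under the peaks at any of the 10 genes.

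Hand1, on chromosome 11 from 57828713 to 57832147, had 1 H3K27me3 peak in each DMSO library and none in any EPZ library. Its cover was 15.9 and 17.3 kb in H3WT DMSO, 17.4 and 18.8 kb in K27M DMSO and 0 kb in the 4 EPZ libraries. The K27M values were higher than the H3WT values in both libraries, although the whole K27M lists covered less than the H3WT lists of the same number. The full widths of 21.1 and 28.0 kb in K27M were 1.25- and 1.27-fold those of 17.0 and 22.1 kb in H3WT, and each H3WT peak lay wholly inside the K27M peak of the same number. With H3WT peaks beyond the window included, H3WT peaks lay under 25.5 of the 28.0 kb in replicate 2, so full width overstates that difference. Among the 4629 genes with peaks in both H3WT DMSO libraries, cover was higher in K27M for both numbers at 1.77%, and of the 7 bHLH genes among them at Hand1 alone. By full width it was higher at 1.6% of these genes, and Hand1 and Tcf21 were the 2 bHLH genes. With 2 libraries against 2 the smallest exact p is 0.333, so an exact permutation test could not pass 0.05, and no other test was run on these differences.

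Tcf21 directs epicardial, branchial muscle and visceral mesenchyme development and lies on chromosome 10 from 22817263 to 22820143. H3K27me3 covered 22.3 and 22.9 of its 22.9 kb window in H3WT DMSO and 22.6 and 22.9 kb in K27M DMSO. The window was therefore full or nearly so in all 4. After EPZ the H3WT libraries had a cover of 8.74 and 3.38 kb and the K27M libraries 0 and 12.3 kb, so 3 of 4 libraries kept a peak and replicate 1 of K27M EPZ, the smallest list, had none. The full width was 27.7 and 46.8 kb in H3WT DMSO and 43.7 and 49.7 kb in K27M DMSO. With peaks beyond the window included, H3WT peaks lay under 42.3 of the 43.7 kb in replicate 1 and 49.1 of the 49.7 kb in replicate 2. The smaller H3WT full width in replicate 1 thus mostly reflects a stretch split into several peaks.

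The EPZ peaks at Tcf21 did not centre on the start site. Relative to it they ran from -0.374 to 8.36 kb and from 2.24 to 5.62 kb in H3WT and from -3.96 to 8.36 kb in K27M replicate 2, over the gene and downstream of it. In H3WT replicate 2 the peak thus began inside the gene and left the promoter printed above without a peak.

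**Figure D2:**
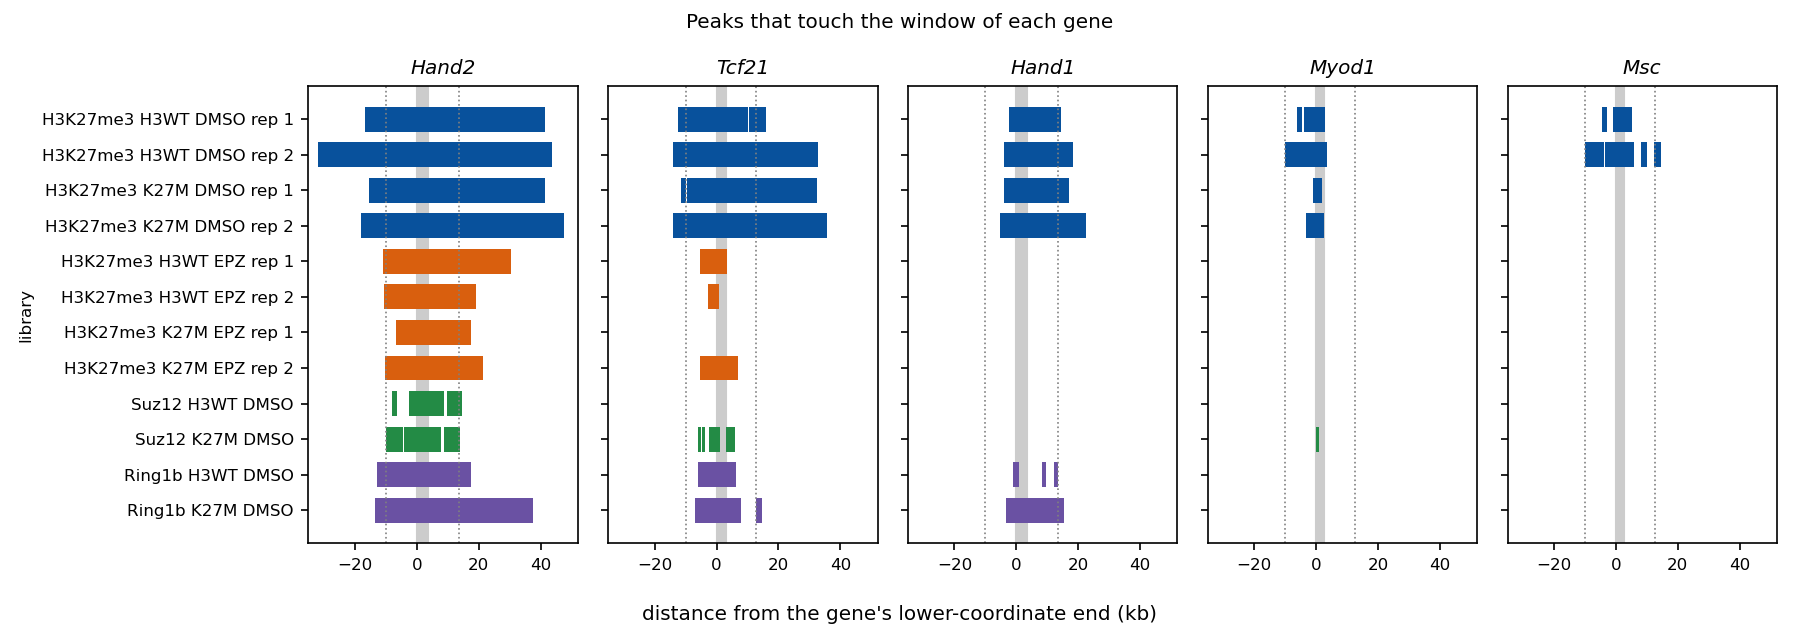
Bars are the peaks that touch the window of 5 genes, by distance in kb from the gene's end with the lower coordinate, in 12 libraries (blue H3K27me3 in DMSO, orange H3K27me3 in EPZ, green Suz12, purple Ring1b); the grey band is the gene and dotted lines mark 10 kb to either side. At Hand2 the orange bars are shorter than the blue and lie inside them, at Tcf21 3 short bars remain, and at Hand1, Myod1 and Msc there are none.

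Myod1, Myf5, Myf6 and Myog are the 4 factors that commit cells to skeletal muscle and drive its differentiation, and they did not share a pattern. Myod1, on chromosome 7 from 46376474 to 46379092, had a cover of 8.32 and 13.4 kb in H3WT DMSO, 3.02 and 5.80 kb in K27M DMSO and 0 kb in the 4 EPZ libraries. The values in K27M DMSO lay below both in H3WT DMSO, and within the same replicate number the H3WT cover was 2.75- and 2.32-fold larger. The K27M peaks lay wholly inside the H3WT peaks and took up 36.4% and 43.2% of them. They reached from -1.14 to 1.88 kb and from -3.18 to 2.62 kb around the gene's end with the lower coordinate.

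Myog, a target of Myod1 in differentiation, had a cover of 3.58 and 4.76 kb in H3WT DMSO, 1.15 and 2.87 kb in K27M DMSO and 0 kb in EPZ. Like Myod1 it was lower in both K27M than in both H3WT libraries and had no EPZ peak.

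Myf5 and Myf6, which act early and late in muscle development, are neighbours on chromosome 10, from 107482908 to 107486927 and from 107492848 to 107494723. They are 5.92 kb apart and share 14.1 kb of their windows, so they count as 1 locus rather than 2 independent genes. Nothing was called there in any library. The peak nearest to Myf5 was 844 and 367 kb away in H3WT DMSO, and 4112 and 1010 kb away in K27M DMSO. The peak lists do not show whether the locus is free of the mark or only below the caller's threshold.

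Mesp1 and Mesp2, which act in cardiac mesoderm and in the segmentation of somites, lie on chromosome 7 from 79792241 to 79793590 and from 79810727 to 79813431. They are 17.1 kb apart and share 2.86 kb of their windows. Mesp1 cover was 3.62 and 6.96 kb in H3WT DMSO, 0 and 3.52 kb in K27M DMSO and 0 kb in EPZ. Mesp2 cover was 0 and 3.70 kb in H3WT DMSO and 0 kb in the other 6 libraries. The only Mesp2 peaks came from the largest list of the series, and Mesp1 kept a peak in K27M only in the larger of the K27M lists.

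Tcf15, also called paraxis, patterns the somite epithelium and lies on chromosome 2 from 152143056 to 152149097. Its cover was 3.11 and 5.94 kb in H3WT DMSO, 0 and 2.63 kb in K27M DMSO and 0 kb in EPZ. Msc (musculin), a bHLH repressor of branchial and other muscle precursors, lies on chromosome 1 from 14753344 to 14756089. Its cover was 7.90 and 17.8 kb in H3WT DMSO, and 0 kb in both K27M DMSO and all 4 EPZ libraries. The nearest K27M DMSO peak was 1626 and 246 kb away from Msc, so no narrower peak remained at the gene in either K27M library.

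Of the 4629 genes with peaks in both H3WT DMSO libraries, 32.7% kept a peak in both K27M DMSO libraries and 21.1% had one in neither. Of the 7 bHLH genes among them, 4 kept it in both (Hand1, Hand2, Myod1 and Tcf21), 2 in replicate 2 only (Mesp1 and Tcf15) and 1 in neither (Msc). Cover was lower in both K27M than in both H3WT DMSO libraries at 4 genes, Mesp1, Myod1, Tcf15 and Msc, against 11.2% of all genes. With the gene body alone in place of the 10 kb flanks, this held for 2 genes, Tcf15 and Msc, and the share of all genes was not computed.

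**Figure D3:**
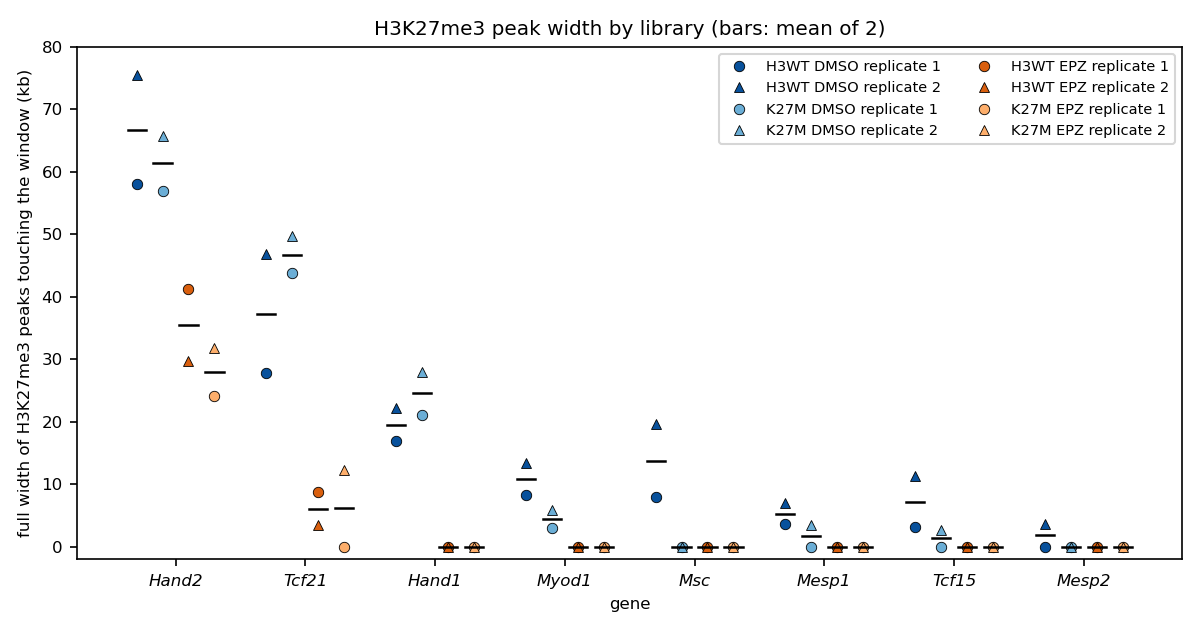
Points give the full width in kb of the H3K27me3 peaks touching each gene's window, for replicates 1 (circles) and 2 (triangles) of 4 groups, with a black bar at the mean of the 2. Hand2 widths in EPZ (24.1 to 41.3 kb) lie below those in DMSO (57.0 to 75.5 kb). Hand1 and Tcf21 have larger values in K27M than in H3WT DMSO for both replicate numbers, but H3WT peaks beyond the window are not counted.

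EPZ was compared with DMSO over 4 libraries against 4, both genotypes together, with a two-sided exact permutation test of cover for the 9749 genes with any H3K27me3 cover. Mean cover was 17.4 kb in DMSO and 0 kb in EPZ at Hand1, 22.7 and 6.11 kb at Tcf21, and 7.65 and 0 kb at Myod1. Each of these 3 had the exact permutation p of 0.0286, the smallest that 4 against 4 allows, and a Benjamini-Hochberg adjusted p of 0.187. None passed the threshold of 0.05 after adjustment. The share of genes called was 0% (0 of 9749), while 1491 genes were lower and 0 higher at an unadjusted exact p under 0.05. With 1491 of 9749 genes at the smallest p, 0.187 was the lowest adjusted p that any gene could reach. The lack of calls therefore does not show unchanged cover. All 4 EPZ values lay below all 4 DMSO values at these 3 bHLH genes, against 6.89% of all genes. With the gene body alone this held for 2 of them, Hand1 and Myod1, and the share of all genes was not computed. Tcf21 then had an exact permutation p of 0.429 (adjusted 0.724).

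Mean cover at Msc was 6.43 kb in DMSO and 0 kb in EPZ, with an exact permutation p of 0.429 (adjusted 0.745), since both K27M DMSO libraries were already at 0. Mesp1 and Tcf15 each had an exact permutation p of 0.143 (adjusted 0.382), and Mesp2 of 1 (adjusted 1). Hand2 had 23.5 and 22.7 kb and an exact permutation p of 1 (adjusted 1), because its window was full in 7 of 8 libraries. By full width, which was added after the data were seen, all 4 EPZ values lay below the DMSO values at 4 bHLH genes, Hand1, Hand2, Myod1 and Tcf21, against 6.97% of all genes. The Hand2 peak in EPZ was 1.40- and 2.54-fold narrower than in DMSO in H3WT and 2.37- and 2.07-fold narrower in K27M, a far smaller reduction than that of the whole lists, which covered 12.2- to 109.6-fold less.

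A peak in both EPZ libraries of the genotype was kept by 2 of the 7 bHLH genes marked in H3WT DMSO, against 4.6% of all genes so marked. In K27M it was kept by 1 of 4, against 10.4%. Without replicate 1 of each group, 2 genes, Hand2 and Tcf21, had a peak in the remaining K27M EPZ library, against 1.36% of all genes. Leaving out replicate 1 also raised the number of genes lower in EPZ than in DMSO from 3 to 5, by Mesp1 and Tcf15, whose K27M DMSO replicate 1 was at 0. Fewer libraries make this condition easier to meet, and the share of all genes that then met it was not computed.

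Suz12 was called at 1 of the 10 genes in H3WT (Hand2), against 2.3% of all genes, and at 3 in K27M (Hand2, Myod1 and Tcf21), against 4.04%. Hand2 had 4 Suz12 peaks with a full width of 17.6 kb in the H3WT library and 5 peaks with 22.5 kb in the K27M library. Tcf21 had no Suz12 in H3WT and a cover of 8.64 kb, in 4 peaks, in K27M. Myod1 likewise had none in H3WT and 1.00 kb in K27M, a single peak of the smallest width the lists contain. A Suz12 peak in K27M and none in H3WT was found at 2.27% of all genes. With 1 library per genotype these differences have no replicate check, and the K27M Suz12 list was also the larger.

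Ring1b was called at Hand1, Hand2 and Tcf21 in both genotypes, against 6.99% of all genes in H3WT and 8.02% in K27M. Of the genes with H3K27me3 in both K27M DMSO libraries, 39.6% had Ring1b in both genotypes, and 3 of the 4 bHLH genes did, all but Myod1. In the H3WT library the Ring1b full width at Hand1 was 4.02 kb, in 3 separate peaks of which the widest was 1.86 kb, whereas the K27M library had 1 peak of 18.7 kb. The corresponding H3WT and K27M widths were 30.2 and 51.1 kb at Hand2 and 12.4 and 16.6 kb at Tcf21. All 3 were wider in K27M by full width, as were 74.2% of the genes with Ring1b in both genotypes, with no replicate check. At Hand2 full width left out H3WT Ring1b peaks beyond the window, since H3WT Ring1b covered 35.6 kb of the H3WT EPZ replicate 1 peak. The part of such splitting in the wider K27M values was not tested. Hand1 thus had Ring1b and wide H3K27me3 but no Suz12 peak nearer than 1456 kb in H3WT and 1457 kb in K27M.

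The peaks left after EPZ were set against the Polycomb peaks of DMSO cells of the same genotype. At Hand2, Suz12 peaks covered 51.2% and 59.2% of the H3WT EPZ peaks and 87.8% and 84.8% of the K27M EPZ peaks. Ring1b covered 86.1% and 94.0% of them in H3WT and 100% of both in K27M. At Tcf21, Ring1b covered 100% of each of the 3 EPZ peaks, while Suz12 covered 65.6% of the K27M peak and none of the H3WT peaks, where it was not called. Every Ring1b and Suz12 peak at Hand1, Hand2, Tcf21 and Myod1 lay wholly under H3K27me3 peaks of DMSO cells of its genotype. Hand1 showed the other outcome, with Ring1b in DMSO and no EPZ peak in either genotype.

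Of the other genes in the pathway, the dimer partners and their inhibitors were counted first. Among 7, Id4, an inhibitor that sequesters E proteins, was the 1 gene with H3K27me3 in both libraries of H3WT and of K27M DMSO, with a cover of 12.8 and 22.2 kb and of 5.73 and 11.7 kb. With 7 genes, 1 marked gene is close to the shares of all genes, 21.4% and 7.06%. The E protein genes Tcf3, Tcf4 and Tcf12 had no peak in any of the 12 lists. Of 9 other mesodermal bHLH genes, 5 were marked in both libraries of either DMSO genotype (Myog, Twist1, Twist2, Tal1 and Tcf24). Twist1, a factor of mesenchyme, had 22.2 kb in each of the 4 DMSO libraries, and with EPZ 15.5 and 8.03 kb in H3WT cells and 0 and 12.0 kb in K27M cells, so that K27M EPZ replicate 1 lacked a peak here as at Tcf21.

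Regulators upstream of the muscle factors and the effector genes below them were counted separately. Of 10 upstream regulators and partners, 6 were marked in both H3WT DMSO libraries, 6 in K27M DMSO and 5 in all 4 EPZ libraries. Pax3, Pax7 and Lbx1 were among these 5. Pax3, which acts upstream of Myod1 in the embryo, had a cover of 80.2 and 88.1 kb in H3WT DMSO, 70.2 and 78.0 kb in K27M DMSO, and after EPZ 36.1 and 32.1 kb in H3WT cells and 14.8 and 21.1 kb in K27M cells. Pax7, the satellite cell factor, had 25.6 to 40.9 kb in the DMSO libraries and 11.5 to 13.6 kb in the EPZ libraries. In both genes every EPZ value lay below every DMSO value. Of 12 muscle effector genes, such as the creatine kinase gene Ckm and the actin gene Acta1, 7 were marked in H3WT DMSO, and 3 in K27M DMSO. None had a peak in both EPZ libraries of a genotype, none had Ring1b, and 1, Ckm, had Suz12, in K27M only. For a list of this size these low counts are near the shares of all genes (0.985% and 0.74% for EPZ, 6.99% and 8.02% for Ring1b) and say nothing about the list. The difference between these lists was not tested.

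Of 11 heart regulators and effectors, 7 were marked in H3WT DMSO, 5 in K27M DMSO and 5 in all 4 EPZ libraries, namely Nkx2-5, Gata4, Gata6, Tbx20 and Isl1. Nkx2-5, a cardiac homeobox factor that acts beside Hand2, had a cover of 26.3 and 26.3 kb in H3WT DMSO, 22.9 and 26.3 kb in K27M DMSO, and after EPZ 17.9 and 15.5 kb in H3WT cells and 9.87 and 16.8 kb in K27M cells. Of 14 somite regulators, 7, 4 and 2 were marked in the same sets, the last being Uncx and Foxc2. Among all 63 genes of these 6 lists, 33 were marked in H3WT DMSO, 24 in K27M DMSO and 12 in all 4 EPZ libraries. The shares for all genes are the 21.4%, 7.06% and 0.703% given above.

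**Figure D4:**
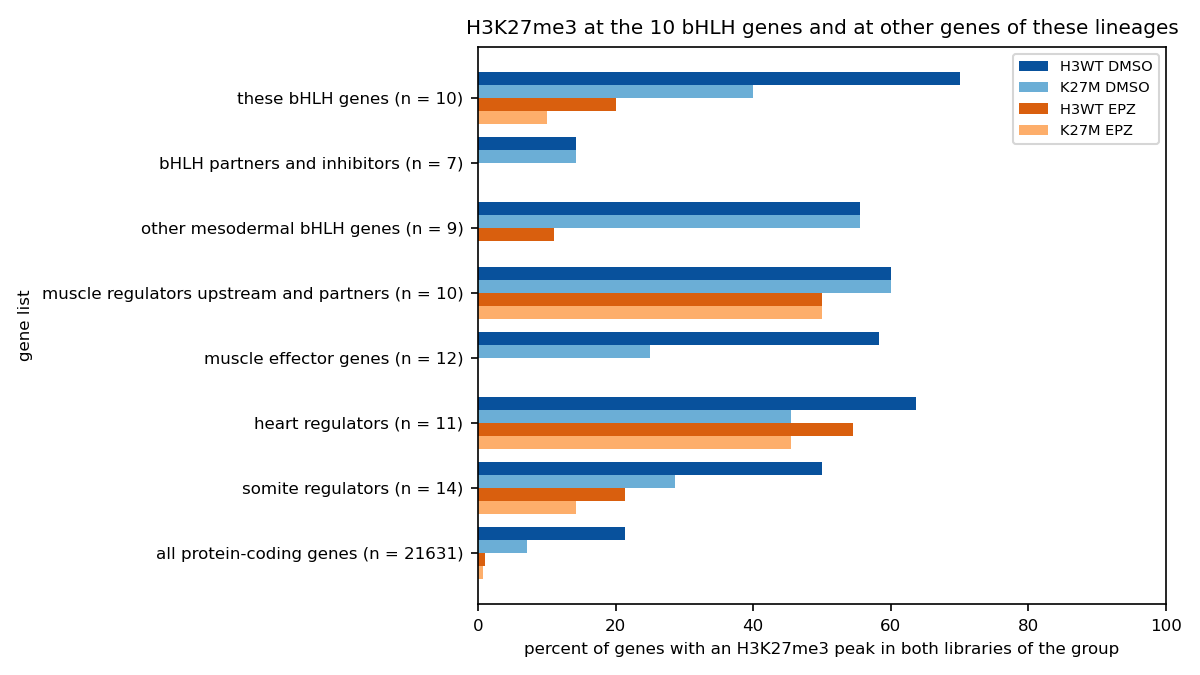
Bars give the percent of genes with an H3K27me3 peak in both libraries of each of 4 groups, for the 10 bHLH genes, 6 lists of related genes and all 21631 protein-coding genes. In both EPZ groups 5 of 10 muscle regulators upstream and partners had a peak; a missing EPZ bar for a list of 7 or 12 genes is close to the 0.985% and 0.74% of all genes.

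The genes most like each bHLH gene were sought among all protein-coding genes by the mean absolute difference in percent of window covered over the 12 libraries. Hand2 was nearest to Hoxa10 and Hoxa11, at 2.56 and 2.71 percentage points. Tcf21 was nearest to Dlx6 and En1, at 5.94 and 5.95 points, and with EPZ the cover of Dlx6 was 6.45 and 3.52 kb for H3WT against 0 and 11.1 kb for K27M. Hand1 was nearest to Prss16 and Cdkn2a, at 3.91 and 4.76 points. Cdkn2a, which encodes the cell cycle inhibitors p16Ink4a and p19Arf, had a cover of 23.0 and 29.7 kb in H3WT DMSO, 29.5 and 30.7 kb in K27M DMSO and 0 kb in EPZ. Its Ring1b cover was 11.4 kb in the H3WT library and 28.9 kb in that of K27M. Cdkn2a differed from Hand1 in having Suz12 in K27M, at 12.0 kb. These genes were chosen by likeness over the same 12 libraries. Values that Dlx6 shares with Tcf21, or Cdkn2a with Hand1, therefore follow from the choice and are no separate result.

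Myod1 was nearest to Astl and Srrm3, at 1.00 and 1.27 points. Msc was nearest to Svs5 and S100a8, at 0.68 and 0.94 points, and Mesp1 to Slc30a2 and Kazald1, at 0.17 and 0.23 points. Tcf15 was nearest to Phyhip and Gjd2, both at 0.05 points, and Mesp2 to Aqp3 and Shmt1, both at 0 points. For Mesp1, Tcf15 and Mesp2 the likeness rests on peaks in 3, 3 and 1 of the 12 libraries.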

How the data were processed

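H3K27me3, Suz12 and Ring1b ChIP-seq had been deposited as 1 peak list per library for 12 of 14 samples; 2 IgG libraries were not analysed here. Reads were aligned with Bowtie 1.1.2 to mm10, per the submitters' processing notes. Which peak caller, threshold and control were used, and the read depth, are not given in the sources used here. The lists deposited by the authors give positions, and their deposited score is 0 in every line, so peaks have no height. The narrowest peak was 1001 bp. Groups came from titles and descriptions.

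Peaks that touched within a list were merged (21 of 100144 lines). Gene positions, symbols and promoters came from RefSeq tables of GRCm38.p6, whose chromosomes are those of mm10; promoter entries were found for 5 of the 10 genes, and the Myf5 entry, which starts inside the annotated gene, is not printed. Cover was computed for every protein-coding gene with Python 3.11.15, numpy 2.4.6 and pandas 2.3.3 and drawn with matplotlib 3.10.9. EPZ and DMSO were compared by a two-sided exact permutation test over 70 relabellings, adjusted by the Benjamini-Hochberg method over 9749 genes, with code tested on simulated data. Since the labels name no separate cultures, a p-value reflects the spread between libraries only, and this may be technical.

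The 10 genes and all lists were chosen with earlier results of these data known. Named genes were the 10 bHLH genes, protein-coding genes under their peaks, the 2 genes most like each (at least 1 Mb away), and list genes with a peak in all 4 EPZ libraries or Myog; Id4, Twist1, Twist2, Tal1, Tcf24, Ckm, Acta1, the E protein genes and the marker genes were named as list examples after their values were seen. Certain list genes within the rule are not reported here. Flanks of 0, 5 and 50 kb, peaks of at least 3 kb, overlaps of at least 1 kb, each replicate left out and a replicate block were tried; full peak width was added after seeing the data.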

Additional observations from a re-analysis of the deposited data

How the results depend on the processing

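Of the planned and added alternatives, 68 counts of genes stayed within 1.5 times their value and 4 did not. The 68 include the count of bHLH genes called by the EPZ test. It was 0 in every setting, as for all genes, and is no sign of stability. They also include a rise from 4 to 6 genes with a K27M DMSO peak when replicate 1 was left out, against 21.6% of all genes. Genes with less cover in both K27M than in both H3WT DMSO libraries numbered 2 with the gene body alone. Genes lower in all EPZ than in all DMSO libraries numbered 5 with 50 kb flanks, by Hand2 and Tcf15, and 3 to 5 when either replicate was left out. Among all genes, those lower at an unadjusted exact permutation p under 0.05 also rose, from 1491 with 10 kb flanks to 2850 with 50 kb flanks. With a replicate left out the share of all genes was not computed, so these changes are not read as results about the bHLH genes. Genes with a peak in both K27M EPZ libraries numbered 1 to 2 when either replicate was left out. The causes were not tested. With peaks of at least 3 kb only, Suz12 at Myod1 in K27M and Ring1b at Hand1 in H3WT were no longer counted. Over 8 alternative settings, 59 of 63 EPZ differences of single bHLH genes were negative and the other 4 were 0. Hand1, Mesp1, Mesp2, Myod1, Tcf15 and Msc had a mean EPZ cover of 0 kb, so their differences could not be positive. The settings also share the same peaks, and this count of signs is no separate check. Adjusted p ranged from 0.149 to 1, so no call was made in any setting. At an unadjusted exact p under 0.05, 957 to 2850 genes were lower in EPZ, except where the smallest p was above it.

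Replicate numbers were checked for pairing. Deviations of equal numbers correlated at 0.829 between the DMSO groups, 0.002 and 0.025 between DMSO and EPZ within H3WT and K27M, and -0.4 between the EPZ groups. In DMSO, replicate 2 was the larger list in both genotypes, and in EPZ 164 to 295 genes per library had a peak. These correlations therefore cannot show whether equal numbers are pairs. No label says what a number marks, so the numbers were not used as pairs in the test. A paired fit with a replicate block has 16 relabellings and a smallest p of 0.125, and called 0 genes.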
